A study of Mus musculus with 2 samples.

Results

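Immediate early genes are a fixed list of 44 symbols here, taken out of 55536 annotated genes: the Fos and Jun subfamilies of AP-1, the EGR zinc fingers, Krüppel-like factors, dual specificity phosphatases, mRNA decay factors and further genes switched on by growth factors, stress or tissue handling. Each symbol matched 1 gene. The members are found by symbol alone, with no threshold on expression, though the list was drawn up with earlier results of these data known.

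Immediate early genes are transcribed within minutes of a stimulus, without the need for new protein synthesis, because the factors that start them, such as serum response factor and CREB, are already bound or waiting in the cell. The first wave encodes transcription factors and, with little delay, the phosphatases and RNA-binding proteins that end the response. Their RNA is usually short-lived, and in heart several of them are known to answer to stretch, to adrenergic drive and to the removal of the tissue itself.

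Hearts of male B6CASTF1/J mice, an F1 cross between B6 and CAST, were taken at 2 months of age and their total RNA was sequenced after reduction of ribosomal RNA. The labels name no treatment and no transgene, and The Jackson Laboratory is given as the source. There was 1 group of 2 biological replicates with 1 library each, made from 300 ng of RNA with ERCC spike-in RNA. Although 1 donor entry is shared by the samples, each has its own male number and tissue entry in the labels, and they are read as 2 mice. With no second group no test between conditions could be made, and a difference between the hearts has no replicate check.

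Replicate 1 held 39177981 expected counts and replicate 2 held 44544839. Cardiomyocyte markers stood at a median of 3658 ± 126 TPM (a level per transcript length, scaled to the same total in each library; SD, n = 2), as in heart, and endothelial, fibroblast, mural and macrophage markers were all at or above 1 TPM in both hearts. Blood cells differed between the hearts: the summed TPM of 6 erythroid markers was 20348 in replicate 1 and 6413 in replicate 2. Nuclear protein-coding genes held 38.7% of TPM in replicate 1 and 39.4% in replicate 2, so levels on this scale are low numbers even for well-expressed genes.

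Most of the immediate early genes were present in these hearts, at moderate levels. At or above 1 TPM in both mice were 37 of 44 members (84.1%), against 49.8% of 22015 nuclear protein-coding genes. Their median level was 5.89 TPM in replicate 1 and 5.83 TPM in replicate 2. The median of the 10957 protein-coding genes detected by the same rule was 8.53 and 8.82 TPM, so the members' median was below that of detected genes. Above the median of detected genes stood 18 members, and above their upper quartile of 20.9 TPM stood 7. All members together held 0.124% of the nuclear protein-coding TPM in replicate 1 and 0.136% in replicate 2.

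**Figure D1:**
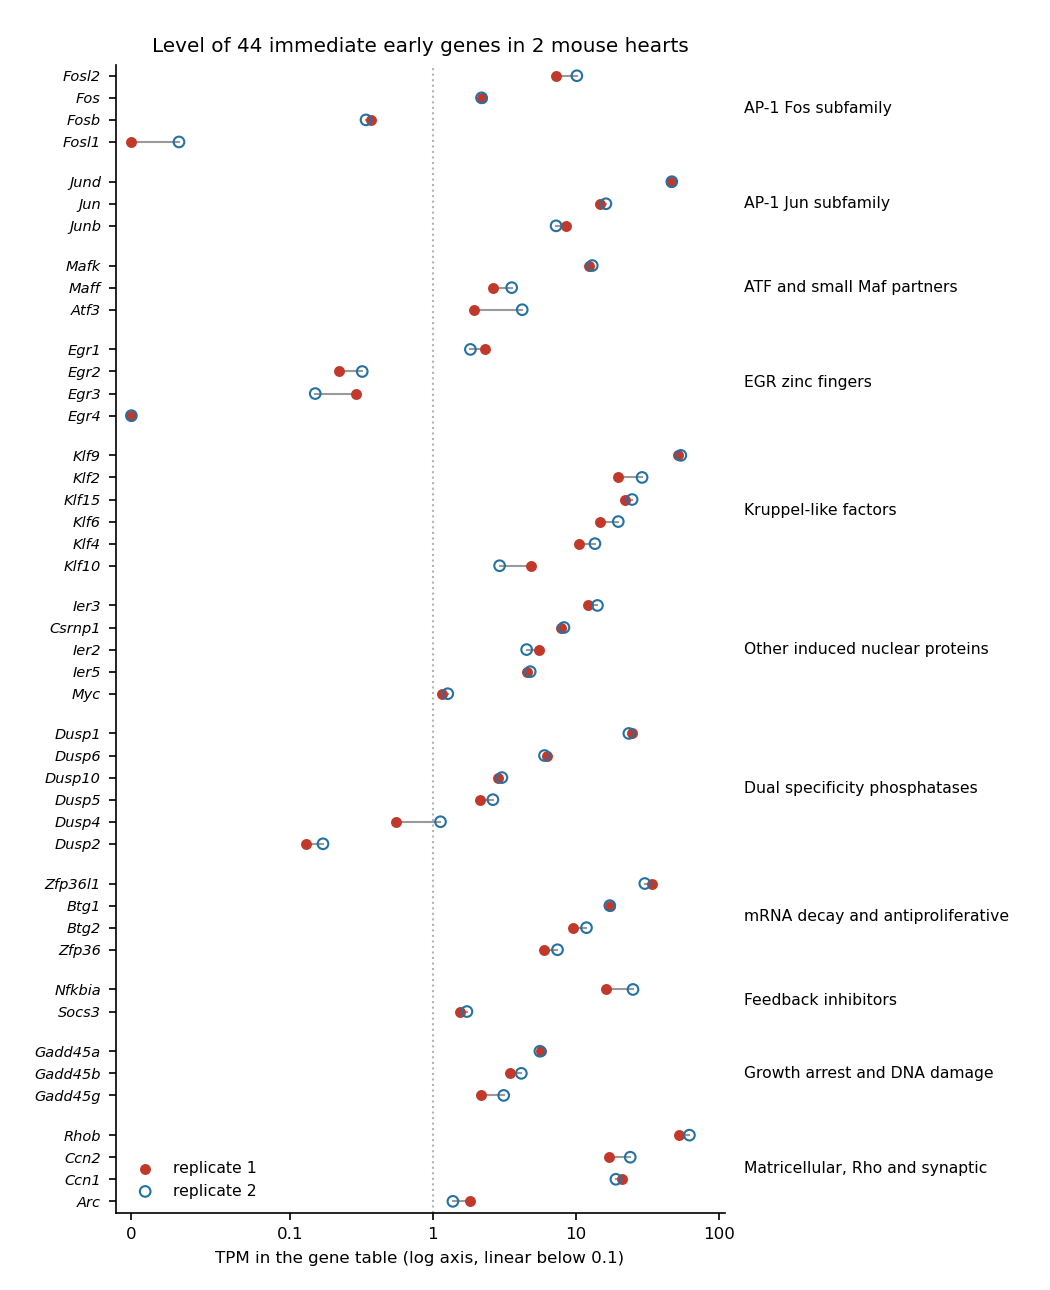
TPM of each of the 44 members in the gene table (log axis, linear below 0.1), grouped by role, with filled points for replicate 1 and open points for replicate 2 and a dotted line at 1 TPM. Rhob, Klf9 and Jund lie farthest to the right in both hearts, Egr4 is at 0 in both, and the widest gaps on this axis between hearts among genes above 1 TPM in both are those of Atf3 and Klf10.

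As genes the members are compact. The transcript with the highest level had a median of 3 exons, against 8 in detected protein-coding genes, and spanned a median of 3330 bases of genome, against 20960 bases. A span under 10000 bases was found for 34 of 44 members (77.3%) and for 28.5% of detected genes. The spliced transcripts were nearly as long as usual, with a median of 2361 bases against 2640 bases. Jun, Junb, Jund, Ier2, Ier5, Rhob and Zfp36 were read mainly from a transcript of a single exon, 15.9% of members against 2.39% of detected genes.

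Promoter DNA was matched for 35 of the 44 members in the RefSeq table of GRCm38.p6, as windows from 250 bases before to 50 bases after each start site. Egr1, Dusp4, Ier2, Klf10, Arc, Ccn2, Myc, Fosl1 and Egr3 were not matched. In 32 of the 35 a window's start lay within 100 bases of the start of the member's GENCODE transcript with the most reads. The CArG box, the sequence that serum response factor binds, occurred in the windows of Egr2, Dusp5 and Zfp36, which is 8.57% of matched members and 1.81% of the 27025 genes in the table. The full cyclic AMP response element TGACGTCA, the site of CREB and ATF proteins, occurred in Dusp1, Btg2 and Maff, again 8.57%, against 2.03% of all genes. Its core TGACG, which lies inside the full element, occurred on either strand in 19 members (54.3%) and in 23.0% of all genes. TATAAA was found on either strand in 8 members (22.9%) and in 15.7% of all genes. A gene was counted where any of its windows matched. Unlike the comparison of exons and span, the 27025 genes were not limited to those detected in these hearts. A match is a string in the window and was not tested for binding.

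Stretches of 70 bases before the start site are printed for 6 members because they show these elements side by side, with every match to the searched motifs, on either strand, in capitals. Each is read 5′ to 3′ on the gene's strand, from GRCm38.p6. The first pair holds the CArG boxes of Dusp5 (chr19:53529038-53529107, plus strand, overlapping an exon of the antisense gene AC137853.2) and Egr2 (chr10:67537767-67537836, plus strand).
Dusp5: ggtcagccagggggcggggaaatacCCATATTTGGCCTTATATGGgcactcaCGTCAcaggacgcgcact
Egr2: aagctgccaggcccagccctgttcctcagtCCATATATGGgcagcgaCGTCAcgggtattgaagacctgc
Dusp5 carried 2 CArG boxes end to end, from 82 to 63 bases before the start, and the single box of Egr2 lay 72 to 63 bases before it. Both also held TGACG on the opposite strand, 55 to 51 bases before the start. The next 3 hold the full cyclic AMP response element, in Dusp1 (chr17:26508577-26508646, minus strand), Btg2 (chr1:134079283-134079352, minus strand) and Maff (chr15:79347450-79347519, plus strand).
Dusp1: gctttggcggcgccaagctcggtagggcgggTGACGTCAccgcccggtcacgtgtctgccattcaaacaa
Btg2: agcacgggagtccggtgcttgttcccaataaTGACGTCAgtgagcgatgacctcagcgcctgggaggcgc
Maff: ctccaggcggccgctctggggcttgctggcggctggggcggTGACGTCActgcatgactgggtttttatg
The Fos stretch (chr12:85473808-85473877, plus strand) holds the core 66 to 62 bases before the start and TATAAA 33 to 28 bases before it.
Fos: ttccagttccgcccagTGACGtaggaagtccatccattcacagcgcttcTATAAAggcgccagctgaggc

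The other end of these transcripts was richer in the AU-rich motif through which ZFP36 proteins shorten RNA life. In the 3′ untranslated region of the coding transcript with the most reads, the word ATTTA (written as DNA) occurred at a median of 2.41 per kilobase in members and 1.25 per kilobase in 10946 detected protein-coding genes. The longer word TATTTAT was present in 23 of 44 members (52.3%) and in 28.2% of detected genes. The untranslated regions had similar lengths, with medians of 1093 and 1014 bases. Ier3 had 5 ATTTA words in 613 bases, Ccn1 5 in 690 bases and Dusp2 4 in 581 bases, the densest of the members. Egr3, Egr4, Ier2, Gadd45b, Gadd45g and Arc had none in the annotated region. For Egr3 that region was only 50 bases, from Egr3-201 with 8.86 expected counts in replicate 1 and 0 in replicate 2. The longer coding model Egr3-204, with 8.53 and 0 counts, was not searched.

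Windows of 30 bases around TATTTAT, in capitals, are printed for 7 members that differ in how they behaved between the hearts. They come from the GENCODE M21 transcripts, 5′ to 3′ on the gene's strand: Fos-201 (chr12:85477103-85477132, plus), Ier3-201 (chr17:35822481-35822510, plus), Zfp36-202 (chr7:28376962-28376991, minus), Dusp1-202 (chr17:26506158-26506187, minus), Klf10-201 (chr15:38294919-38294948, minus), Atf3-201 (chr1:191170337-191170366, minus) and Nfkbia-201 (chr12:55489607-55489636, minus).
Fos: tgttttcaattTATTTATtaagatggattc
Ier3: tgtctaattaaTATTTATgTATTTATgtat
Zfp36: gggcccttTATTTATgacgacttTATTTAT
Dusp1: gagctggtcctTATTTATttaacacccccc
Klf10: cagtgtcttttTATTTATaggagtttttca
Atf3: aaaatattactTATTTATcccagtattcct
Nfkbia: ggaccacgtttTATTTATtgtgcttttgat
Zfp36, itself a decay factor, and Ier3 each hold the word 2 times within one window. The element was present both in members at nearly equal levels in the hearts and in those that differed, as the values below show.

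Among the AP-1 factors, which pair as Jun-Jun or Jun-Fos dimers, the Jun side was much the more abundant. Jund, the constitutive Jun protein, was at 46.5 TPM in replicate 1 and 47.1 TPM in replicate 2. Jun was at 14.9 and 16.3 TPM, and Junb at 8.49 and 7.28 TPM. Within each heart Jund was above Jun 3.01 ± 0.164-fold and above Junb 5.97 ± 0.697-fold in TPM (mean ± SD, n = 2), so the order Jund, Jun, Junb held in both. Junb lies opposite Prdx2, a peroxiredoxin gene at 235 and 254 TPM whose exons overlap it on the other strand, and reads of the pair may have been shared.

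The Fos side was led by Fosl2, the Fra-2 protein, and not by Fos. Fosl2 stood at 7.30 TPM in replicate 1 and 10.2 TPM in replicate 2. Fos, the classical first-wave gene, was at 2.19 TPM in both, from 96 and 130 expected counts. Fosl2 exceeded Fos 3.33-fold in replicate 1 and 4.65-fold in replicate 2, and Jund exceeded Fos 21.4 ± 0.178-fold. Fosb was at 0.37 and 0.34 TPM, and Fosl1 had 0 counts in replicate 1 (up to 0.0548 TPM at the floor of 3 counts) and 2 counts in replicate 2. Summed over the subfamilies, Jun members were above Fos members 7.09-fold in replicate 1 and 5.54-fold in replicate 2.

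ATF3 and the small Maf proteins, which join these dimers or compete with them, split by gene. Mafk stood at 12.4 and 13.1 TPM, a difference within counting error. Maff was at 2.65 TPM in replicate 1 and 3.56 TPM in replicate 2. Atf3, a repressor induced by many kinds of stress, was at 1.93 TPM in replicate 1 and 4.22 TPM in replicate 2, from 112 and 238 counts. Per scaled count Atf3 was 1.80-fold higher in replicate 2, with an exact 95% counting interval of 1.44 to 2.28.

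The EGR factors, zinc finger proteins that are among the steepest responders in neurons and muscle, were the lowest family. Egr1 was at 2.30 TPM in replicate 1 and 1.83 TPM in replicate 2, the only EGR gene above 1 TPM. Egr2 was at 0.22 and 0.32 TPM and Egr3 at 0.29 and 0.15 TPM, each from 20 counts or fewer in a library. No read was assigned to Egr4 in either heart, which allows up to 0.0472 TPM in replicate 1 and 0.0416 TPM in replicate 2 at the floor of 3 counts. The family summed to 2.56 ± 0.361 TPM, against 134 ± 14.6 TPM for the 6 Krüppel-like factors.

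Krüppel-like factors held the highest family sum, and all 6 were above 1 TPM. Klf9, a glucocorticoid-responsive member, led with 52.0 TPM in replicate 1 and 54.4 TPM in replicate 2. Klf15, a regulator of cardiac lipid and amino acid use, was at 22.1 and 24.8 TPM. Both were close in the hearts, with Klf9 2.27 ± 0.112-fold above Klf15 in TPM. Klf2 and Klf4, known in endothelium as flow-responsive factors, were at 19.8 and 29.1 TPM and at 10.6 and 13.6 TPM. Klf6 stood at 14.7 TPM in replicate 1 and 19.9 TPM in replicate 2. These 3 were higher in replicate 2, while Klf10 was the other way round. Klf10, a TGF-beta-inducible repressor, was at 4.84 TPM in replicate 1 and 2.93 TPM in replicate 2, so Klf9 exceeded it 10.8-fold in one heart and 18.6-fold in the other.

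The remaining induced nuclear proteins ranged widely in level. Ier3, a small survival protein, was at 12.3 and 14.2 TPM, and Csrnp1, a nuclear protein of the axin response, at 7.88 and 8.27 TPM. Ier2 was at 5.49 TPM in replicate 1 and 4.53 TPM in replicate 2, and Ier5 at 4.53 and 4.80 TPM. Myc, the growth-promoting factor, was the lowest with 1.15 and 1.27 TPM, from 66 and 90 counts. On the scaled counts used below, only Ier2 of these 5 differed beyond counting error, 1.25-fold higher in replicate 1 (interval 1.04 to 1.51).

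Feedback genes were dominated by a few members. Dusp1, the phosphatase that ends p38 and JNK signalling, was at 24.96 TPM in replicate 1 and 23.53 TPM in replicate 2, and was above Dusp6, another phosphatase of MAP kinases, 3.94 ± 0.0602-fold in TPM. Dusp6 was at 6.27 and 6.04 TPM, Dusp10 at 2.84 and 3.04 TPM and Dusp5 at 2.15 and 2.63 TPM. Dusp4, a nuclear phosphatase of MAP kinases, was at 0.55 TPM in replicate 1 and 1.13 TPM in replicate 2, from 45 and 105 counts, so it crossed 1 TPM in one heart only. Dusp2 was at 0.13 and 0.17 TPM. The 6 phosphatases summed to 36.9 and 36.5 TPM. Dusp1 overlaps Ergic1, on the other strand at 20.4 and 20.5 TPM, and shared reads were not tested.

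Zfp36l1, which binds the AU-rich words shown above, was the most abundant of the decay and antiproliferative genes with 34.0 TPM in replicate 1 and 30.4 TPM in replicate 2. Its paralog Zfp36, tristetraprolin, was at 6.02 and 7.45 TPM. Zfp36l1 was thus 5.65-fold above Zfp36 in replicate 1 and 4.09-fold in replicate 2. Btg1 stood at 17.3 TPM in both hearts, and Btg2, its p53-responsive relative, at 9.62 and 11.9 TPM. The 4 genes summed to 66.9 and 67.1 TPM.

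Of the 2 pathway inhibitors, Nfkbia, which holds NF-kappaB in the cytoplasm, was at 16.3 TPM in replicate 1 and 25.2 TPM in replicate 2. Socs3, an inhibitor of cytokine receptor signalling, was at 1.54 and 1.73 TPM, from 117 and 115 expected counts. Per scaled count the order was reversed, 1.19-fold higher in replicate 1 and within counting error (0.917 to 1.56). Gadd45a, Gadd45b and Gadd45g, stress sensors of the cell cycle, were at 5.75 and 5.61 TPM, 3.44 and 4.16 TPM, and 2.16 and 3.13 TPM. The order Gadd45a, Gadd45b, Gadd45g was the same in both hearts.

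Secreted and signalling members included the most abundant gene of the list in the gene table. Rhob, a small GTPase of endosomes and the cytoskeleton, was at 52.5 TPM in replicate 1 and 62.5 TPM in replicate 2. Ccn1, a matrix-associated protein of the CCN family, was at 21.1 and 19.1 TPM, while its relative Ccn2, connective tissue growth factor, was at 17.0 and 24.1 TPM. The order of Ccn1 and Ccn2 therefore differed, with a Ccn1 to Ccn2 ratio of 1.24 in replicate 1 and 0.794 in replicate 2. Arc, best known at synapses, was at 1.82 and 1.38 TPM.

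The 2 hearts were then set side by side, on expected counts scaled by TMM, for the 38 members with a mean of at least 50 counts. Fosb, Fosl1, Egr2, Egr3, Egr4 and Dusp2 fell below this. Higher in replicate 2 were 25 members and higher in replicate 1 were 13, which is 65.8% against 52.0% of all 12453 genes that passed the same filter. The median log2 ratio of replicate 2 over replicate 1 was 0.10 in the members and 0.01 in all genes. In heart tissue, more cells of a type and more RNA per cell cannot be told apart.

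On TMM-scaled counts no member reached a 2-fold difference in either direction. The background was low: a 2-fold excess in replicate 1 was found for 0.369% of all genes, and one in replicate 2 for 0.201%. As a ratio of TPM, which also moves with the transcript models used, Atf3 and Dusp4 did pass it, 2.19-fold and 2.05-fold higher in replicate 2. By that rule 0.369% of all genes were higher in replicate 2 and 0.393% in replicate 1. At 1.5-fold on counts, 1 member (Klf10) was higher in replicate 1, where 1.27% of all genes were, and 2 members (Dusp4 and Atf3) were higher in replicate 2, where 0.819% of all genes were. The counting interval excluded equality for 9 members higher in replicate 1 (8.62% of all genes) and for 14 higher in replicate 2 (10.9% of all genes). This interval covers sampling of reads only, and not variation between animals. It also takes the TMM scaling as given, so calls near equality depend on that scaling.

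Dusp4 had the largest difference, 1.98-fold higher in replicate 2 (interval 1.39 to 2.88), and it also had the fewest counts of the 38. Klf10 was 1.87-fold higher in replicate 1 (1.60 to 2.20). Nfkbia was 1.44-fold (1.31 to 1.58), Klf2 1.42-fold (1.31 to 1.53), Ccn2 1.36-fold (1.26 to 1.46) and Fosl2 1.35-fold (1.26 to 1.44) higher in replicate 2, each from 717 counts or more a library. Klf6 and Klf4 followed at 1.29-fold and 1.27-fold, and Gadd45g was 1.40-fold higher with a wide interval of 1.02 to 1.94. In the other direction came Arc, 1.37-fold (1.09 to 1.73), and Egr1, 1.33-fold (1.09 to 1.61) higher in replicate 1. Junb was 1.21-fold (1.06 to 1.38) higher there. Fos was within counting error, at 1.15-fold (0.878 to 1.52).

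**Figure D2:**
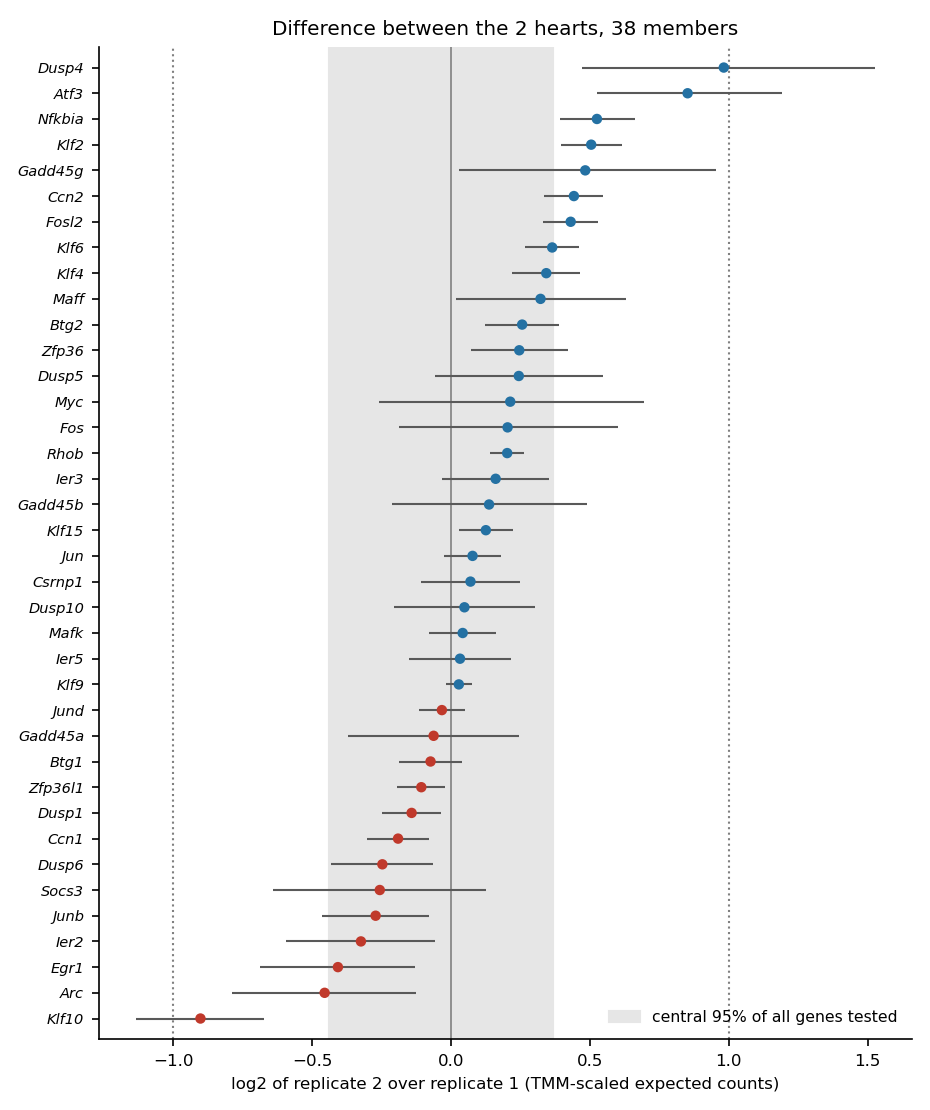
Difference between the hearts, as log2 of replicate 2 over replicate 1, for the 38 members with a mean of at least 50 expected counts, with exact 95% counting intervals as bars, the central 95% of all 12453 genes as a grey band and dotted lines at 2-fold. Points run from Klf10 at -0.90 to Dusp4 at 0.98, and 9 of 38 lie outside the band.

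The members were spread more widely than most genes. The central 95% of all genes lay between log2 -0.44 and 0.37, and 9 of 38 members (23.7%) fell outside, against 5% by construction. Dusp4, Atf3, Nfkbia, Klf2, Gadd45g, Ccn2 and Fosl2 were above it, and Klf10 and Arc below. The SD of the log2 ratio was 0.36 over members, at a median of 511 counts, and 0.31 over all genes, at a median of 575 counts. The latter includes a few genes with far larger ratios than any member. Other inducible lists were wider still: 12 of 33 further stimulus-induced genes (36.4%, SD 0.52) and 4 of 10 glucocorticoid-induced genes (40%, SD 0.47) fell outside the band. Per1 and Sgk1 are counted in both lists, which were chosen, like the members, with earlier results of these data known. With no further animals, how often the spread recurs was not tested.

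Blood cell markers were lower in replicate 2 and adipocyte markers higher, next to these differences. All 6 erythroid markers (Hbb-bs, Hbb-bt, Hba-a1, Hba-a2, Alas2 and Slc4a1) were at least 2-fold higher in replicate 1, with a median log2 ratio of -1.79. The 5 platelet markers summed to 41.9 TPM in replicate 1 and 20.0 TPM in replicate 2, the 5 neutrophil markers to 14.9 and 8.20 TPM, and the 6 lymphocyte markers to 9.80 and 5.46 TPM. Ppbp and Itga2b of platelets were 4.49-fold and 2.95-fold higher in replicate 1, S100a8 of neutrophils was 2.04-fold higher there, and Ighm of lymphocytes was at a log2 ratio of -0.61. The 6 adipocyte markers summed to 15.98 TPM in replicate 1 and 27.15 TPM in replicate 2, and Plin1 among them was 2.38-fold higher in replicate 2. None of these markers was at 0 in both hearts. Endothelial markers differed little, with a median log2 ratio of 0.02, as did fibroblast markers at 0.00 and cardiomyocyte markers at 0.07. Macrophage markers had a median of 0.13. The 5 pericyte and smooth muscle markers had a median of 0.05, with Acta2 at 0.51 and Myh11 at 0.37 but Rgs5 at 0.05, Pdgfrb at 0.00 and Kcnj8 at -0.02. The part of blood, fat and smooth muscle cells in the members' differences was not tested.

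The genes for the proteins that relay a stimulus to the members differed less between the hearts than the members did. All 26 upstream factors and kinases were at or above 1 TPM in both hearts, with a median of 16.2 ± 0.262 TPM. Serum response factor (Srf) was at 32.8 and 35.1 TPM and Creb1 at 10.1 and 9.66 TPM. Their log2 ratios between the hearts were 0.10 and -0.03. Their log2 ratios ran only from -0.19 to 0.28, with an SD of 0.09, and 0 of 26 fell outside the central band of all genes. They were counted more deeply than the members, with a median of 1451 counts.

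A second list of 40 stimulus-induced genes that are not members had the 3 Nr4a orphan receptors at its upper end. Nr4a1, an orphan nuclear receptor induced with Fos in many tissues, was at 7.70 TPM in replicate 1 and 17.4 TPM in replicate 2, 2.27-fold higher. Nr4a2 was at 0.35 and 1.01 TPM and Nr4a3 at 0.95 and 2.55 TPM. Of 33 genes with a mean of at least 50 counts, these 3 passed 2-fold towards replicate 2, where 0.201% of all genes did. Towards replicate 1 it was 0 of the 33 and 0.369% of all genes. The list was chosen with earlier results of these data known. Per1, a clock gene that also answers to cyclic AMP and glucocorticoids, was at 16.2 and 30.6 TPM. Mcl1, a survival protein, was the highest of the list at 50.9 ± 3.39 TPM, Cebpb stood at 31.7 ± 2.88 TPM and Bhlhe40 at 23.0 ± 2.49 TPM. In all, 24 of the 33 were higher in replicate 2, against 52.0% of all genes, with a median log2 ratio of 0.06 against 0.01.

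Of 12 heat shock genes that respond to tissue dissociation, 0 fell outside the central band of all genes. Hspa1a and Hspa1b, the inducible chaperones, were at 1.39 ± 0.148 TPM and 1.04 ± 0.120 TPM, near the detection threshold, while the constitutive Hspa8 was at 587 ± 4.87 TPM, Hsp90ab1 at 494 ± 15.8 TPM, Hspb1 at 181 ± 14.9 TPM and Hspd1 at 145 ± 2.45 TPM. Of the 12 genes 5 were higher in replicate 2 and 7 in replicate 1, with a median log2 ratio of -0.06. The largest differences were those of Hsph1, 1.34-fold, and Hsp90aa1, 1.29-fold, both higher in replicate 1. On TMM-scaled counts Hspb1, Dnaja1 and Bag3 were also higher there beyond counting error, at log2 -0.22, -0.11 and -0.11. Only Hspa8 was higher in replicate 2 beyond counting error, at log2 0.04. These small differences depend on the scaling, as spike-in scaling moved the median log2 ratio of all genes from 0.01 to 0.18. Among 10 glucocorticoid-induced genes, with Mt1 at 170 ± 2.94 TPM, Pdk4 at 111 ± 12.6 TPM, Zbtb16 at 58.4 ± 1.67 TPM and Tsc22d3 at 46.4 ± 10.1 TPM, 3 were higher in replicate 2 and 7 in replicate 1. The 3 were Tsc22d3, Per1 and Sgk1, of which Per1 and Sgk1 are also on the list of stimulus-induced genes. Each of these 3 lay beyond counting error, while Fkbp5, Mt1 and Lcn2 of the 7 were within it.

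**Figure D3:**
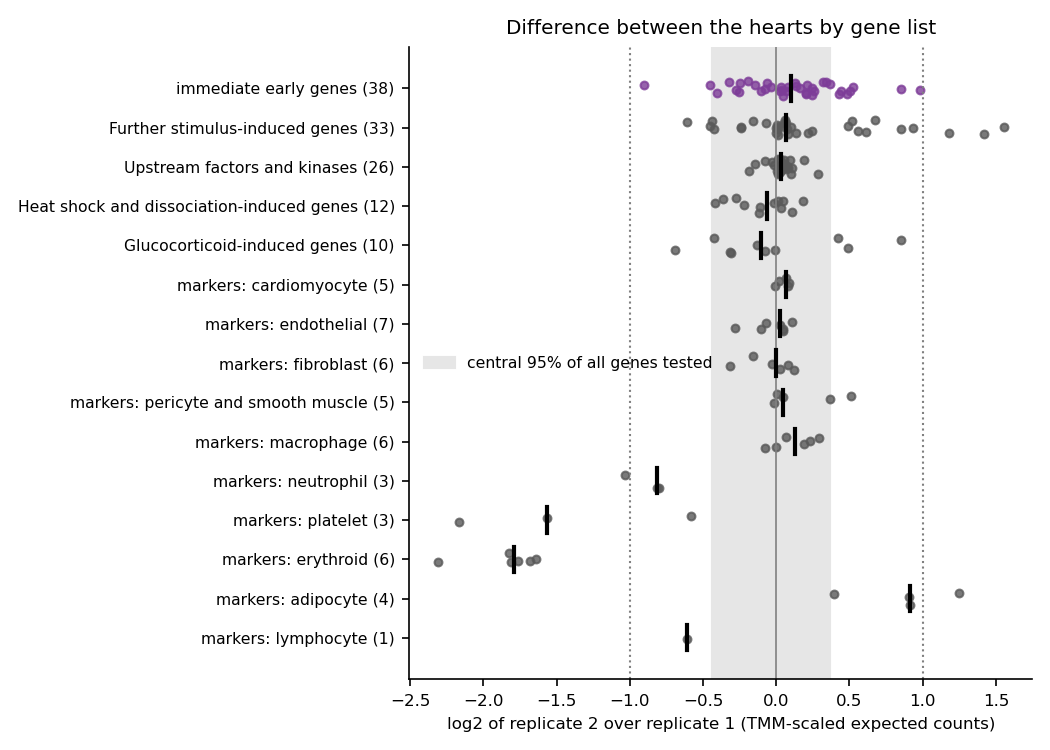
Log2 ratio of replicate 2 over replicate 1 for each gene with a mean of at least 50 expected counts, by list, with the number of genes in brackets, a black line at the list's median, a grey band for the central 95% of all genes and dotted lines at 2-fold. The upstream factors and kinases cluster between -0.19 and 0.28, the members reach from -0.90 to 0.98, and the erythroid markers lie below -1.6.

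Several members were read partly from transcript models that are not annotated as protein-coding. At least one processed, decay-targeted or retained-intron model is annotated for 18 members, and 11 have a retained intron. Klf6 had 29.5% of its TPM on such models in replicate 1 and 31.4% in replicate 2, and the second transcript table, derived from the read file per the deposited descriptions, gave 23.4% and 31.5%. The tables divided this share differently: in replicate 2 the retained-intron model Klf6-202 held 6.5% in the first and 23.0% in the second. For Fos the share on all such models was 40.5% and 24.2% in the first transcript table and 46.6% and 52.6% in the second. The first table put the Fos share on Fos-202 in replicate 1 and on Fos-203 in replicate 2, from 14.6 and 13.0 expected counts, so the model it named rested on few reads. Nfkbia, whose retained-intron model is Nfkbia-202, had 7.16% and 12.4% in the first table but 25.6% and 28.99% in the second. Gadd45a had 28.9% and 34.6% in the first table but 17.5% and 1.74% in the second.

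**Figure D4:**
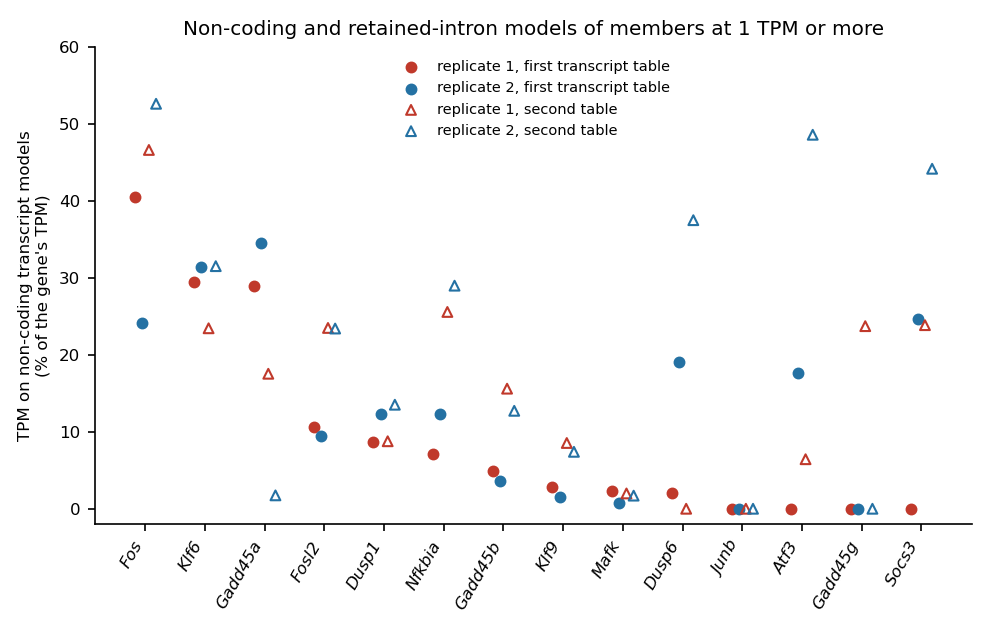
Share of a gene's TPM on transcript models annotated as processed, decay-targeted or retained-intron, in percent. It is given for the 14 members with such a model and a mean of at least 1 TPM. Colour marks the mouse, circles the first transcript table and triangles the second. Fos and Klf6 are above 20% in all 4 values, Dusp1 and Mafk agree closely between tables, and Gadd45a, Dusp6 and Atf3 do not.

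The leading transcript was the same in both hearts for 28 of 32 members with several models, and the same in both hearts and both tables for 23. The other 12 members have a single annotated transcript. Btg1 divided into a long and a short coding form: Btg1-202, of 668 bases, held 60.2% and 61.2% of the gene's TPM, but Btg1-201, of 5001 bases, held most of its reads with 1044 and 1158 expected counts. Zfp36l1-203, a coding form of 292 bases, held 31.5% and 24.2% of Zfp36l1 from 64.14 and 49.95 expected counts. The second table put it at 0 TPM. Klf15-201 held 75.2% and 85.3% of Klf15 in the first table and under 0.1 TPM in the second, which placed Klf15 on Klf15-202 and Klf15-203. Atf3-201 held 78.2% of Atf3 in replicate 1 and 52.2% in replicate 2. Myc-201 and Myc-205 have identical sequences and cannot be told apart.

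Gene levels depended on the quantifier for some members. The second table gave higher TPM for 37 of 43 members with a level above 0, with a median ratio of 1.10 between the tables. It differed by more than 1.3-fold for 8: Gadd45a at 11.8 ± 2.41 TPM against 5.68 ± 0.0990 TPM, Btg1 at 27.2 ± 0.561 against 17.3 ± 0.0354 TPM, and Atf3, Socs3, Dusp10, Fos, Nfkbia and Egr2. Egr2 alone of these was lower in the second table. Klf9 stood above Rhob there in replicate 1, at 57.3 against 53.9 TPM, and below it in replicate 2. Of 24 ratios between members or subfamilies within a heart, 7 moved by more than their SD in the second table. Jund over Fos was 17.5 ± 1.48-fold there. Zfp36l1 over Zfp36 was 4.63-fold in replicate 1 and 3.17-fold in replicate 2 there. Dusp1 over Dusp6 was 4.61-fold in replicate 1 and 3.25-fold in replicate 2 there, a wider spread than in the gene table. The ratio between hearts kept its direction in 35 of 38 members, and turned for Fos, Ier5 and Mafk, all of them within counting error. Klf10, Dusp4 and Atf3 kept theirs.

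**Figure D5:**
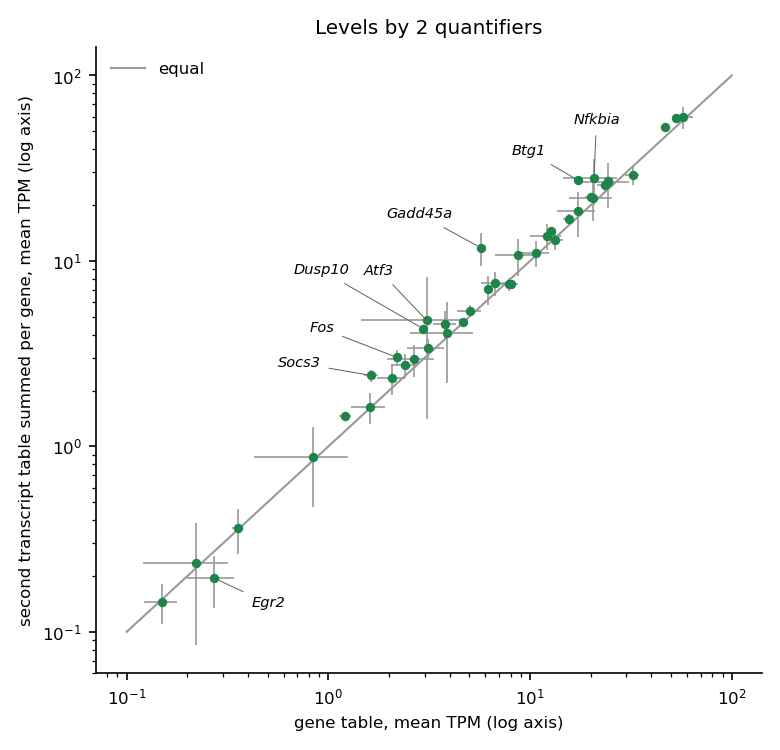
Mean TPM of the 42 members above 0.1 TPM in the gene table (x) and in the second transcript table summed per gene (y), on log axes, with SD over 2 mice as bars and the line of equality. Gadd45a lies farthest above the line, at 5.68 against 11.8 TPM, and the named genes differ by more than 1.3-fold.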

How the data were processed

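Total RNA-seq was measured in 2 heart libraries of 1 group. Per the file headers, the authors deposited expected counts, TPM and FPKM per gene, and the same with each transcript's percent of its gene's TPM; the authors' second transcript table has estimated counts, with TPM. Per the deposited descriptions, mm10 and GENCODE M21 were used. Column names are those of RSEM and kallisto, but aligner, tools, versions and whether counting used strand were not given in the sources used here. Unnamed entries (26248, with 3 and 2 counts) and spike-ins (0.547% and 0.502% of counts) were left out.

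Levels are TPM with SD over 2 mice, and detection is 1 TPM in both. Ratios are replicate 2 over replicate 1 of expected counts rounded to whole numbers and scaled by TMM (edgeR 4.0.16, R 4.3.3; log2 size ratio 0.23), with 0.5 added as prior count, where the mean was at least 50 counts, and 2-fold as the threshold. Intervals are exact Clopper-Pearson at 95%. No molecular identifiers exist, so intervals and the 3-count floor cover only counting error. The calculation was checked on simulated counts of 12453 genes for this comparison. At 2-fold, 100% of 100 genes changed 4-fold were called, 0% of 100 changed 1.5-fold and 0% of unchanged genes. Variation between simulated libraries was small, with a median absolute log2 ratio of 0.095 in unchanged genes. In the hearts 0.369% and 0.201% of all genes passed 2-fold, so the check covers the arithmetic and not variation between animals. Dominant transcripts are those highest in mean TPM. Motifs were searched on both strands of promoters, and on the sense strand of 3′ untranslated regions, which follow the annotated stop codon.

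Every member is named. The highest genes of the upstream list are not reported here by name. Members are given in full where they are among the 10 highest, at 0 in a mouse or past 1.5-fold, and other lists by up to 4 of their highest genes and any past 2-fold at a mean of 50 counts or more. Srf, Creb1, Per1, Sgk1, Hspa1a, Hspa1b, Hsph1, Hsp90aa1, Dnaja1, Bag3, Ighm and the mural markers were named after their values were seen. So were Fkbp5 and Lcn2. The members and lists were chosen with earlier results of these data known. Alternatives were the second table, posterior mean TPM, FPKM, rescaled TPM, DESeq2 1.42.0 size factors, total and spike-in scaling, other filters, priors and thresholds, and leaving out each mouse. Python 3.11.15, numpy 2.4.6, pandas 2.3.3, scipy 1.17.1 and matplotlib 3.10.9 were used.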

Additional observations from a re-analysis of the deposited data

How the results depend on the processing

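The number of members at or above 1 TPM in both mice was 37, and lay between 32 and 38 under every alternative run, 37 and 38 with a mouse left out. The median TPM of members was 5.86, between 5.83 and 5.89 with a mouse left out, 6.84 in the second table, 6.14 as posterior mean TPM, 4.63 as FPKM, 15.0 when TPM was rescaled to nuclear protein-coding genes, and 8.08 over the 37 detected members alone. No member was 2-fold higher in replicate 1 under any scaling, filter, prior or quantifier, and 1 was at 1.5-fold. In replicate 2 the count of 0 became 2 at 1.5-fold, 1 with total-count scaling (Dusp4), 2 with spike-in scaling (Atf3 and Dusp4), 1 with no filter on low counts (Fosl1, on 2 counts), and 2 as ratios of TPM (Atf3 and Dusp4). Spike-in scaling moved the median of all genes from 0.01 to 0.18 and that of members from 0.10 to 0.27. Under it 30 of 38 members were higher in replicate 2, as Jund, Dusp1, Zfp36l1, Btg1 and Gadd45a turned. The ratios of 17 of the 38 moved outside their TMM counting interval. Ier2 went from log2 -0.32 to -0.15. DESeq2 size factors turned none and total count turned Jund. A change of scaling moves every gene by nearly the same amount. The shares of all genes under total-count and spike-in scaling were not computed, so the members' counts under them have no background. Counts left unrounded and a prior count of 0, added like the TPM ratio after seeing the data, left both 2-fold counts at 0. No paired analysis was possible because there is 1 group. Depth limits Fosb, Fosl1, Egr2, Egr3, Egr4 and Dusp2, whose ratios are not given, and the transcript shares of Fos, Socs3 and Myc rest on few reads.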
